A study of Homo sapiens with 4 samples.

Results

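The EGR and AP-1 immediate early factors are a group of 10 transcription factor genes: the zinc finger genes EGR1, EGR2 and EGR3, and the AP-1 genes FOS, FOSB, FOSL1, FOSL2, JUN, JUNB and JUND. They were found on an Affymetrix PrimeView array as the probe sets annotated to exactly 1 of these symbols. This gave 33 probe sets for 9 of the 10 genes, out of 49293 cellular probe sets and 18244 genes in all. EGR2 had no probe set annotated to it alone and was not analysed here. The arrays measured Kelly cells, a human neuroblastoma cell line in which MYCN is amplified and the receptor kinase ALK carries an activating mutation. All 4 arrays came from a derivative resistant to the ALK inhibitor TAE684, kept in 1 µM of the drug. The shBORIS group (2 arrays) carried a short hairpin RNA against BORIS, the protein of the gene CTCFL, and the shLUC group (2 arrays) carried the control hairpin against luciferase. Both groups were exposed to virus for 24 h with polybrene and selected with puromycin for 48 h, so they share the drug, the infection and the selection, and the labels name 1 hairpin against BORIS. Parental cells and cells without the drug were not analysed here.

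Immediate early genes are switched on within minutes of a growth signal, without new protein synthesis. The kinase ERK, which ALK activates through RAS, phosphorylates ELK1, and ELK1 together with serum response factor (SRF) drives EGR1 and FOS. EGR proteins bind GC-rich sites as single molecules. AP-1 is a dimer of basic leucine zipper (bZIP) proteins: the FOS proteins need a JUN partner, while JUN proteins can also pair with each other or with ATF proteins. In the nervous system EGR1 and FOS are used as markers of recent stimulation, and JUN is a major factor of stress, migration and nerve injury responses.

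Values are deposited probe set intensities, compared as log2(intensity + 16), so that changes of dim genes are understated. The hairpin did lower its target, as read by the brightest of the 7 CTCFL probe sets, the only 1 described here. This probe set was at 701 and 737 on the shBORIS arrays, against 3563 and 3376 on the shLUC arrays. The log2 difference was -2.72 relative to the median gene (limma adjusted p = 7.89e-10). The median gene tested was 0.48 higher on the log2 scale on the shBORIS arrays as deposited. Differences are therefore given relative to the median gene (the relative scale), and as deposited beside them. The 18 probe sets for the hybridisation controls bioB, bioC, bioD and cre, which the standard Affymetrix protocol adds after labelling, were also all higher on the shBORIS arrays, by a median of 0.49. The 100 probe sets for the ERCC spike-ins, added to the total RNA, differed by a median of -0.0018. The ratio of the ACTB control probe sets at the transcript's 3-prime and 5-prime ends was 1.36 and 1.32 on the shBORIS arrays, against 1.46 and 1.38 on the shLUC arrays. Of 10 markers of sympathoadrenal neuroblastoma 9 had a probe set of their own and all 9 passed the filter on low values, with summed intensities of 24087 and 24853 on the shBORIS arrays, against 18290 and 17392 on the shLUC arrays. CHGA alone averaged 6255 with shBORIS and 2133 with shLUC, and relative to the median gene 2 of the 9 rose and 6 fell. The summed level of 7 fibroblast and endothelial markers was 928 and 1016 on the shBORIS arrays, against 1127 and 1156 on the shLUC arrays, and 4 of the 7 were under the filter on every array. Without COL1A1 the sum of the other 6 was 477 and 501 on the shBORIS arrays, against 398 and 377 on the shLUC arrays, the opposite direction. That of 4 Schwann cell and glial markers was 170 and 178 with shBORIS, against 219 and 198 with shLUC; ERBB3 and MBP were lower on both shBORIS arrays, and GFAP and S100B were higher. Among 5 blood and immune markers the sums were 239 and 231 with shBORIS, against 242 and 206 with shLUC. PTPRC was under 20 on each array, and 3 of the 5 were under the filter on every array. The 2 tested, CD68 and HBB, passed as lower relative to the median gene, at -0.55 and -0.31, and neither passed as deposited. The part of these differences in the results was not tested, and in bulk RNA fewer cells of a type and less RNA per cell cannot be told apart.

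Of the 9 genes measured 7 were tested, and EGR1 and FOSB were among them only through their shBORIS arrays. Relative to the median gene 2 of the 7 rose (EGR1 and FOS), 3 fell (JUN, FOSL2 and JUND) and 2 did not pass (FOSB and JUNB). Of the 10946 genes tested, 30.3% rose and 28.8% fell on that scale, 59.1% in all, so the number of calls in the group is like that among genes in general. As deposited 4 members rose (EGR1, FOS, FOSB and JUNB), where 77.2% of all genes did, and 1 fell (JUN), where 4.64% did and 81.9% of genes passed in either direction. All 7 tested members had arrays that did not overlap between the groups, as did 90.4% of genes tested, and 30 of the 33 probe sets did not overlap, as did 74.8% of cellular probe sets. The median of the 7 was -0.15 relative to the median gene and 0.33 as deposited, against 0.0014 and 0.48 over all genes tested. By probe set, 9 of 33 were higher and 14 lower relative to the median gene, where 16.4% and 46.2% of all cellular probe sets were (62.7% in all), and as deposited 15 were higher and 4 lower, where 51.8% and 3.22% were (55.1% in all).

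**Figure D1:**
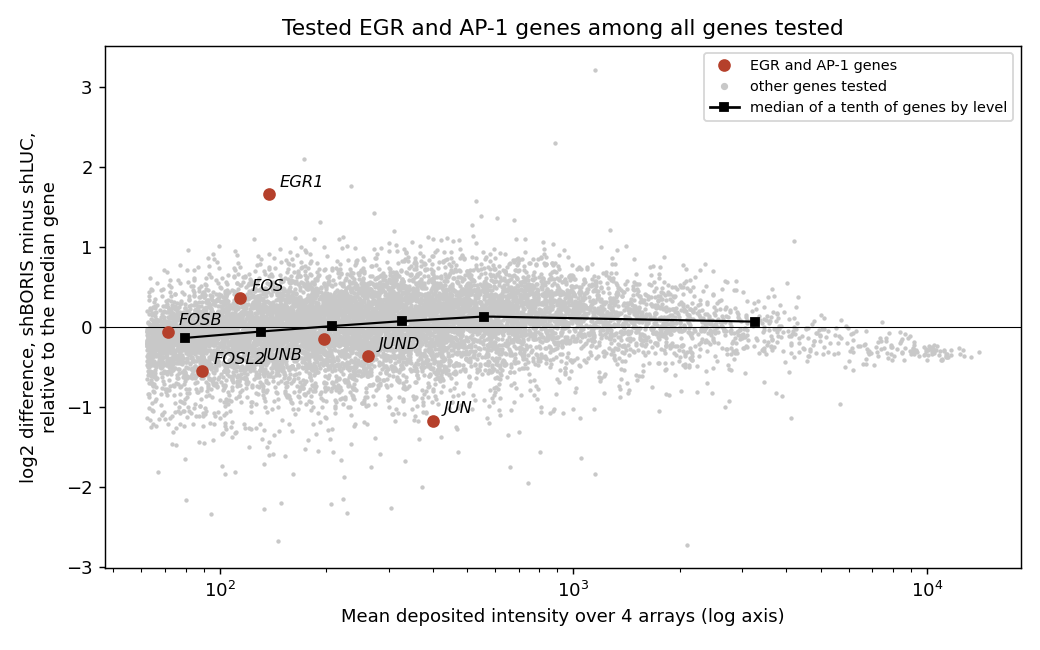
The log2 difference of shBORIS minus shLUC relative to the median gene (vertical) against mean deposited intensity over the 4 arrays (horizontal log axis). Points are the 10946 genes tested, red for the 7 tested EGR and AP-1 genes. Squares are medians of level bins 5 to 10, out of 10 equal bins over all 18244 genes. EGR1 at 1.66 and JUN at -1.17 lie outside the range of -0.68 to 0.57 that holds the middle of the genes from the 5th to the 95th percentile, and the other 5 lie inside it.

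The windows below hold the 250 bases before the transcription start of EGR1, FOS and JUN. They are shown because these 3 genes passed in the same direction on both scales. They are from RefSeq, build GRCh38.p14, written 5′ to 3′ on the gene's own strand. Capitals mark matches, searched on both strands, to the CArG box bound by SRF, the cyclic AMP response element core TGACGT, the AP-1 site TGANTCA, its variant TGACATCA known from the JUN promoter, and the EGR site GCGNGGGCG.
EGR1, chr5:138465229-138465478, plus strand: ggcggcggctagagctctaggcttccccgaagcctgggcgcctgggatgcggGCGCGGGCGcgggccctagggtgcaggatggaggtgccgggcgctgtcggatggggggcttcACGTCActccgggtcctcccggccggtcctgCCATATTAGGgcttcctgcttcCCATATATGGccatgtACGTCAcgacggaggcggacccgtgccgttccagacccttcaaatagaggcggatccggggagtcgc
FOS, chr14:75278578-75278827, plus strand: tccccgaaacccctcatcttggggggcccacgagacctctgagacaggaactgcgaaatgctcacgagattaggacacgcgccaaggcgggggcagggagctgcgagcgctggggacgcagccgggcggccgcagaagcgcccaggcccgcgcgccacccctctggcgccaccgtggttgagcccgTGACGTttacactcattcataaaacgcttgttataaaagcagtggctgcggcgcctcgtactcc
JUN, chr1:58784048-58784297, minus strand: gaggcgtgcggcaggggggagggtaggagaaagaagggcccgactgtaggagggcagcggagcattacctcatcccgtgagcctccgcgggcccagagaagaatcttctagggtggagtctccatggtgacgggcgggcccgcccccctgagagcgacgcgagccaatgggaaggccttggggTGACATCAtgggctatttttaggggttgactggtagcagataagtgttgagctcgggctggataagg

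In the EGR1 window there were 2 CArG boxes, 105 to 96 and 83 to 74 bases before the start, 2 copies of TGACGT (on the opposite strand, so printed as ACGTCA) and 1 EGR site. FOS had 1 copy of TGACGT, 64 to 59 bases before the start, and no CArG box within these 250 bases. JUN had neither of these; it held TGACATCA, 67 to 60 bases before the start, which is bound by JUN dimers and by JUN with ATF2. None of the 3 windows held TGANTCA. Among the 35116 windows of the same length in the table, 1.16% held a CArG box, 7.10% TGACGT, 6.57% TGANTCA, 2.38% TGACATCA and 8.42% the EGR site. A match describes the letters of the window and does not show binding. Windows of 8 of the 10 genes were searched, not those of EGR3 and FOSL1. The search of the members left out any window on chromosome 8. TGACGT was also in windows of EGR2, FOSB, FOSL2 and JUND, of which FOSL2 and JUND fell on the relative scale. A CArG box was also in a window of EGR2. The JUNB window held none of these motifs.

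EGR1 had the largest rise of the group. Its brightest probe set (11754334_s_at) read 232 and 236 on the shBORIS arrays, against 40.9 and 41.0 on the shLUC arrays. The shBORIS arrays were far above the shLUC arrays, and the 2 arrays of each group were close together. The difference relative to the median gene was 1.66 on the log2 scale, a 3.16-fold rise (SE 0.08; limma adjusted p = 3.97e-07), and 2.14 as deposited. As the mean of its probe sets the rise was 1.05, and with a pseudocount of 64 it was 1.10. Genes in the same level bin (10 equal bins by mean intensity) had a median difference of -0.06. The shLUC level lies under the filter of 62.2, so EGR1 was tested only because of its shBORIS arrays and the size of its rise is approximate.

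All 6 EGR1 probe sets were higher on both shBORIS arrays than on either shLUC array. The 3 brightest rose by 1.45 to 1.80 relative to the median gene. Probe set 11717862_x_at rose by 0.54 and 11717861_a_at by 0.54 (limma adjusted p = 0.00103 and 0.00444 over all cellular probe sets). The last, 11751643_x_at, read 82.7 and 89.9 on the shBORIS arrays, against 47.5 and 60.6 on the shLUC arrays, a difference of 0.07 that did not pass (SE 0.11; limma adjusted p = 0.578), although it rose by 0.55 as deposited. The suffix x marks probe sets with probes that can also match other transcripts. Probe sets of EGR1 thus differed in the size of the rise and had 1 sign.

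EGR3, a related factor with roles in muscle spindle and synapse development, was dim throughout. Its brightest probe set read 48.8 and 34.9 on the shBORIS arrays, against 27.5 and 40.4 on the shLUC arrays, and the groups overlapped. Its 4 probe sets ranged from 13.3 to 48.8 over the 4 arrays, all under the filter, so EGR3 was not tested as a gene. Relative to the median gene the 4 differed by -0.54 to -0.26, and 2 passed as lower over all cellular probe sets. Genes in the same level bin had a median of -0.33, and as deposited the 4 differed by -0.06 to 0.21, with 0.104 the smallest limma adjusted p. The 2 calls of EGR3 probe sets thus hold on 1 scale only, at intensities under the filter.

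**Figure D2:**
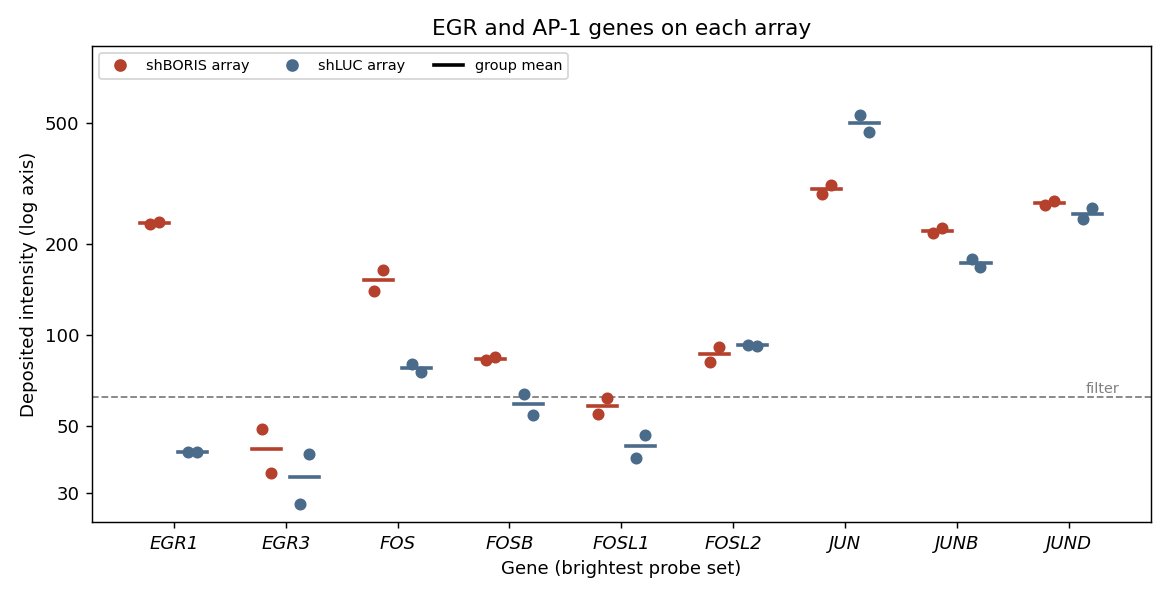
Deposited intensity (vertical log axis) of the brightest probe set of the 9 EGR and AP-1 genes measured, on the 2 shBORIS arrays (red) and the 2 shLUC arrays (blue); points are arrays, bars are group means and the dashed line is the filter at 62.2. EGR1 and FOS are higher and JUN is lower on both shBORIS arrays, while EGR3 lies under the filter on every array.

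FOS, the founding AP-1 gene and a partner of JUN, also rose on both scales. Its brightest probe set (11734658_s_at) read 139 and 164 on the shBORIS arrays, against 79.8 and 75.3 on the shLUC arrays. The groups did not overlap. Relative to the median gene FOS rose by 0.36, or 1.28-fold (SE 0.08; limma adjusted p = 0.00309), and as deposited by 0.83. Its other 3 probe sets rose by 0.45 to 0.60 relative to the median gene, and all 4 passed over all cellular probe sets. The rise of FOS was smaller than that of EGR1: the within-array log2 difference of EGR1 over FOS, which is the same as deposited and after centring, was 0.68 and 0.49 on the shBORIS arrays, against -0.75 and -0.68 on the shLUC arrays, a change of 1.30.

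FOSB, whose short splice form accumulates in stimulated neurons, depended on the scale. Its brightest probe set (11717344_x_at) read 82.5 and 84.2 on the shBORIS arrays, against 63.6 and 54.5 on the shLUC arrays. This was 0.41 as deposited, which passed (limma adjusted p = 5.93e-04), and -0.07 relative to the median gene, which did not (SE 0.09; limma adjusted p = 0.504). The shLUC mean, 59.1, lay under the filter. The dimmer probe set read 0.17 as deposited, which did not pass, and on the relative scale it fell by 0.31 (limma adjusted p = 0.0216 over all cellular probe sets).

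FOSL1 and FOSL2 encode FRA1 and FRA2, FOS proteins that lack the strong activation domain of FOS. FOSL1 read 54.9 and 61.7 on the shBORIS arrays, against 39.2 and 46.7 on the shLUC arrays, under the filter on each array, and was not tested as a gene. All 6 of its probe sets were higher on the shBORIS arrays as deposited, by 0.22 to 0.36, of which 3 passed. Relative to the median gene they ranged from -0.26 to -0.12, and 1 passed as lower (limma adjusted p = 0.0490), where genes in the same level bin had a median of -0.24.

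FOSL2 fell relative to other genes and showed no detectable change as deposited. Its brightest probe set (11763169_at) read 81.4 and 91.2 on the shBORIS arrays, against 92.3 and 91.9 on the shLUC arrays, just below without overlap. As deposited the difference was -0.08 and did not pass (limma adjusted p = 0.495). On the relative scale FOSL2 fell by 0.56 (SE 0.08; limma adjusted p = 2.33e-04), against a median of -0.14 for genes in the same level bin. All 5 of its probe sets passed as lower on that scale, with differences of -0.71 to -0.33, while as deposited the smallest limma adjusted p of the 5 was 0.0664. The call thus rests on the scale.

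JUN fell on both scales. Its brightest probe set (11718397_s_at) read 292 and 311 on the shBORIS arrays, against 531 and 469 on the shLUC arrays. Both shBORIS arrays were well below both shLUC arrays. JUN fell by 1.17 on the relative scale, 2.26-fold lower (SE 0.06; limma adjusted p = 4.64e-07), and by 0.70 as deposited, 1.62-fold lower (limma adjusted p = 2.07e-09). Its group means were 302 ± 13.4 with shBORIS and 499.9 ± 44.1 with shLUC (SD, n = 2 each). All 4 probe sets passed as lower on both scales, with relative differences of -1.17 to -0.81 and deposited ones of -0.70 to -0.33. Genes in the same level bin had a median relative difference of 0.07. Among the fibroblast and endothelial markers COL1A1 fell by 1.11 and VWF by 0.27 relative to the median gene, and PDGFRB differed by -0.05 and did not pass there but rose by 0.43 as deposited. The other 4 were under the filter on every array, with DCN and CDH5 under 30; the part of other cells in the fall of JUN was not tested.

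JUNB, a JUN protein that often restrains JUN, and JUND, which is expressed steadily in many resting cells, each had 1 probe set and neither followed JUN in size. JUNB read 216 and 225 on the shBORIS arrays, against 178 and 168 on the shLUC arrays. It rose by 0.33 as deposited (limma adjusted p = 0.00326) and differed by -0.15 relative to the median gene, which did not pass (SE 0.06; limma adjusted p = 0.0693). JUND read 269 and 276 on the shBORIS arrays, against 241 and 261 on the shLUC arrays, differing by 0.11 as deposited, which did not pass (limma adjusted p = 0.335), and falling by 0.37 on the relative scale (SE 0.08; limma adjusted p = 0.00255). Both probe sets carry the suffix x.

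**Figure D3:**
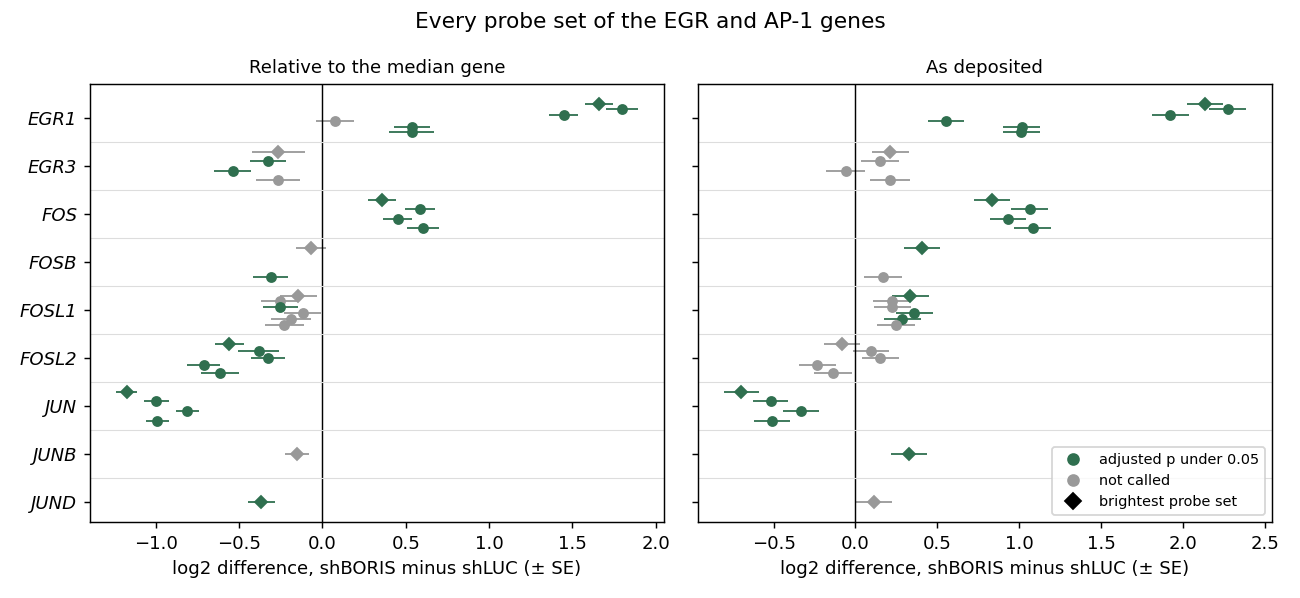
The log2 difference of shBORIS minus shLUC (horizontal, ± SE) for each of the 33 probe sets of the 9 genes (vertical), relative to the median gene on the left and as deposited on the right; green marks passed an adjusted p of 0.05 over all cellular probe sets and diamonds are the brightest probe set of a gene. The EGR1 and FOS probe sets lie above 0 and the JUN probe sets below 0 in both panels, while the FOSB, JUNB and JUND marks lie below 0 on the left and above 0 on the right, and 3 of the 5 FOSL2 marks stay below 0 in both.

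Set against JUN on the same array, the other tested members moved as follows. The log2 difference of FOS over JUN was -0.99 and -0.87 on the shBORIS arrays, against -2.51 and -2.41 on the shLUC arrays, a change of 1.53. That of EGR1 over JUN changed by 2.83, that of FOSB over JUN by 1.10, that of JUNB over JUN by 1.02, that of FOSL2 over JUN by 0.62 and that of JUND over JUN by 0.81. JUN had the largest fall of the tested members, so each change over JUN is above 0 by the choice of reference. The arrays of the groups did not overlap in any of these differences, and the share over all genes was not computed. These differences compare changes and not the levels of the genes. With 2 arrays in each group the smallest two-sided p of an exact permutation test is 0.333, so none is given for them.

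The direction in which other immediate early genes differed depended on the scale. Of 25 listed, 16 were tested, and relative to the median gene 2 rose and 9 fell, with -0.21 as the list median. As deposited 9 rose and 1 fell, and the list median was 0.26. These counts, and those of the lists that follow, stand beside 30.3% higher and 28.8% lower among all genes tested on the relative scale, and 77.2% higher and 4.64% lower as deposited. KLF10, a factor induced by TGF-beta, rose by 0.98 and averaged 882 ± 21.1 with shBORIS and 312 ± 8.91 with shLUC (SD, n = 2 each). ATF3, a stress-induced partner of JUN, fell by 1.01 and averaged 186 ± 2.50 with shBORIS and 275 ± 15.6 with shLUC (SD, n = 2 each). ZFP36, which promotes decay of AU-rich messenger RNAs, fell by 0.69. All 3 were called by limma, with adjusted p = 1.01e-06, 1.55e-06 and 8.01e-05 relative to the median gene; as deposited ZFP36 read -0.21 and did not pass (limma adjusted p = 0.0604). The second gene that rose, chosen after its value was seen, was IER2 at 0.25.

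The bZIP partners of AP-1 were mostly lower on the relative scale, and evenly split as deposited. Of 15 listed, 9 were tested, and 2 rose and 6 fell relative to the median gene, for a list median of -0.55. As deposited 3 rose and 3 fell, and the median was -0.07. DDIT3 (CHOP), which dimerises with other bZIP proteins under stress, fell by 1.62. CREB5, a relative of ATF2, fell by 1.42, averaging 60.7 ± 9.76 with shBORIS and 131 ± 5.07 with shLUC (SD, n = 2 each). With ATF3, named above, these were the 3 genes that also passed as lower as deposited. ATF2, the partner of JUN at TGACATCA, and ATF7, both chosen after their values were seen, rose by 0.46 and 0.31.

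Of the transcription factors that act on these promoters, MRTFB differed most. Of 9 listed, 7 were tested and 2 rose, with a median of 0.01, and as deposited all 7 rose. MRTFB, a coactivator of SRF, rose by 0.73 and averaged 427 ± 13.3 with shBORIS and 175 ± 3.77 with shLUC (SD, n = 2 each). MRTFA, its relative, rose by 0.18 (limma adjusted p = 0.0403). SRF and ELK1, chosen after their values were seen, differed by -0.11 and 0.01, short of the threshold (limma adjusted p = 0.171 and 0.872), although both were higher as deposited, by 0.36 and 0.49, like most genes.

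Transcripts of the MAP kinase cascade were more often lower than higher relative to the median gene. Of 19 listed, 16 were tested, 3 rose and 8 fell, for a list median of -0.23. As deposited 8 of the 16 rose, where 77.2% of all genes did, and the median was 0.25. MAP2K4, a kinase that activates JNK, rose by 0.62 and read 304 and 298 on the shBORIS arrays, against 142 and 124 on the shLUC arrays. MAPK9 (JNK2), which phosphorylates JUN, fell by 0.53, and MAPK3 (ERK1) fell by 0.53, but as deposited they read -0.05 and -0.06, their arrays overlapped and limma gave adjusted p = 0.683 and 0.626, so neither passed. The other genes that rose, chosen after their values were seen, were MAPK7 at 0.43 and MAP2K6 at 0.18. These are transcript levels, and kinase activity was not measured.

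Of the 2 EGR corepressors, which bind EGR1 and limit its activity, 1 passed relative to the median gene and both rose as deposited. NAB1 rose by 0.67 (SE 0.06; limma adjusted p = 7.55e-06) and averaged 702 ± 18.8 with shBORIS and 308 ± 11.5 with shLUC (SD, n = 2 each). NAB2, itself a target of EGR1, differed by -0.15, short of the threshold (limma adjusted p = 0.0944), and a test between the 2 genes was not made. Of 16 EGR targets 9 were tested, with 1 higher and 5 lower on the relative scale, where the list median was -0.20. As deposited 6 were higher and 1 lower, with a median of 0.28. The gene that rose, chosen after its value was seen, was SYN1 at 0.19. THBS1, an inhibitor of blood vessel growth, fell by 0.93. The growth factor TGFB1 fell by 0.37 and the neuropeptide precursor VGF fell by 0.37, but as deposited they read 0.11 and 0.10, short of the threshold (limma adjusted p = 0.352 and 0.382).

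Among 19 AP-1 targets 9 were tested, with 1 higher and 6 lower on the relative scale, where the list median was -0.31. As deposited 3 rose and 3 fell, and the median was 0.17. The 3 with the smallest p fell on both scales. MMP9, a protease that digests basement membrane, read 89.4 and 106 on the shBORIS arrays, against 360 and 335 on the shLUC arrays, and on the relative scale it fell by 2.16. VIM, the mesenchymal intermediate filament, read 180 and 212 on the shBORIS arrays, against 488 and 457 on the shLUC arrays, and fell by 1.69. HBEGF, a membrane-bound growth factor, read 90.3 and 86.1 on the shBORIS arrays, against 190 and 185 on the shLUC arrays, and fell by 1.44. The member that rose, chosen after its value was seen, was the cell cycle gene CCND1, by 0.95. These lists were drawn from general knowledge of the factors, and regulation of the genes by EGR1 or AP-1 was not measured in these cells.

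**Figure D4:**
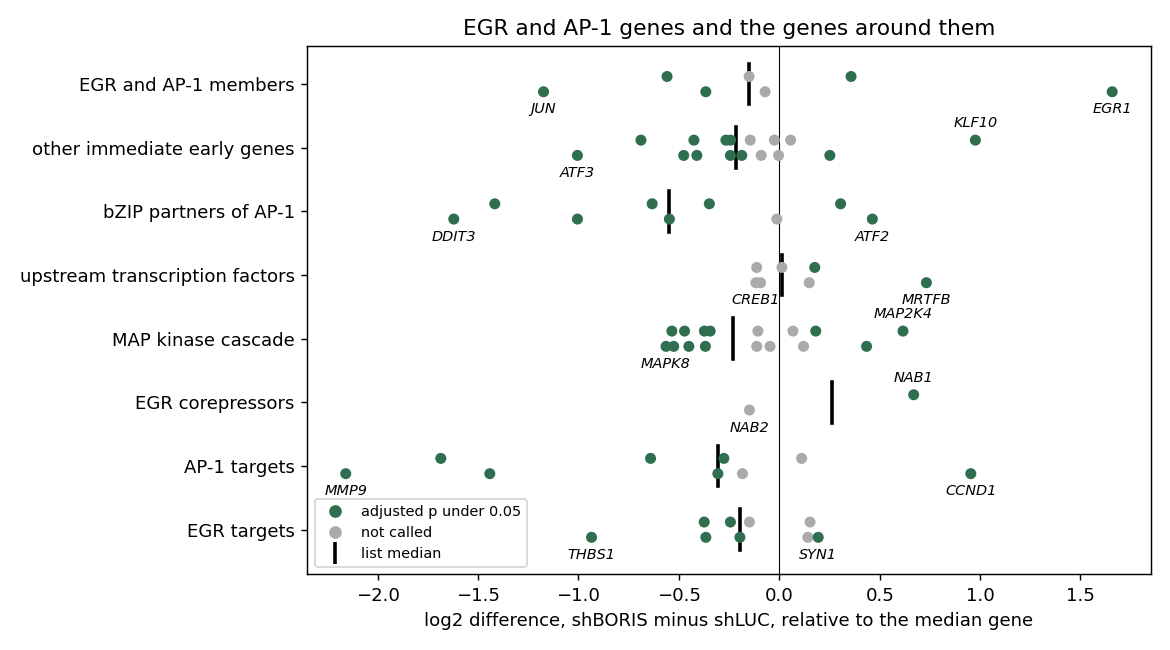
The log2 difference of shBORIS minus shLUC relative to the median gene (horizontal) for the tested members of the EGR and AP-1 group and of 7 lists of related genes (rows); points are genes, green where limma's adjusted p passed 0.05, and black bars are list medians. The bars lie between -0.55 for the bZIP partners and 0.26 for the 2 EGR corepressors, and each list but the upstream factors and the corepressors has called genes on both sides of 0.

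The tested genes nearest to EGR1 in pattern, by Euclidean distance of log2 values centred by array and by gene over the 4 arrays, were HTR3A at 0.14, the RNA-binding protein gene LIN28A at 0.16 and PPP2R1B at 0.29. HTR3A, a serotonin-gated channel subunit, averaged 862 with shBORIS and 197 with shLUC. Those nearest to JUN were PRELID2 at 0.03, the neuronal membrane glycoprotein gene GPM6A at 0.04 and the ribosomal protein gene RPS9 at 0.05. GPM6A averaged 272 with shBORIS and 455 with shLUC. With 2 groups of 2 arrays, likeness here is mainly a similar size of difference.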

How the data were processed

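RNA of 2 shBORIS and 2 shLUC samples, described by the labels as biological duplicates, was measured on 4 PrimeView arrays. The p-values reflect only how far these duplicates differ, over the other genes fitted as well as in the gene itself. The deposited values are linear probe set intensities, 1 column per array and not pooled. The submitters' processing notes list MAS5, affy and R 3.1.3 but assign them no roles, and the sources used here do not give how arrays were scaled. Of 49495 probe sets, 202 controls were left out. Of the rest, 45278 carried 1 symbol in GEO's platform table, 1333 carried several and were set aside, and 2682 had no name. Entrez identifiers matched RefSeq, which gave the current symbol, for 45208.

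Each of 18244 genes was represented by its brightest probe set over the 4 arrays. A filter at the 40th percentile of gene means, an intensity of 62.2, kept 10946 genes. Values were log2(intensity + 16), centred on each array's median over those genes or as deposited. The hairpin was the only term in limma 3.58.1 (R 4.3.3), with an intensity trend, 2 residual degrees of freedom, two-sided p-values and Benjamini-Hochberg adjustment over all genes tested, at a threshold of 0.05. The same model was fitted to all 49293 cellular probe sets, with no filter. As deposited, the prior had infinite degrees of freedom, so the very small p-values there are nominal; with centring it had 7.94. The fit was tested on simulated data. Array number limits precision.

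The 10 genes, the lists and the tests were chosen with earlier results of these data known. All 10 were to be described, and of each list the up to 3 called genes with the smallest p. Alternatives were the pseudocount, filter, probe set rule, scaling, trend, a replicate block and leaving out each array. Same-numbered arrays did not clearly deviate together (correlation 0.098 over genes), and no label says that the numbers pair them.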

Additional observations from a re-analysis of the deposited data

How the results depend on the processing

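EGR1 and FOS kept their rise and JUN its fall, past the threshold, under every alternative in which they were tested. Over the alternatives to the relative fit, EGR1 ranged from 1.05 to 2.14, FOS from 0.20 to 0.83 and JUN from -1.24 to -0.70. The ends 2.14, 0.83 and -0.70 are the values as deposited. With a filter at the 60th percentile EGR1, FOS, FOSB and FOSL2 were not tested, so 0 members were higher, 1 was higher as deposited, and 2202 genes rose relative to the median gene, with 273 lower as deposited; with no filter 5053 fell relative to the median gene. As deposited, 4 members were higher and 1 lower, with 8455 genes higher and 508 lower (against 3315 and 3153 on centred arrays), and with ERCC centring 4 and 1, with 8233 and 592. Under these scalings FOSB read 0.41 and 0.37, JUNB 0.33 and 0.29 and JUND 0.11 and 0.075, and FOSL2, at -0.08 and -0.12, did not pass. FOSB also read 0.045 with no filter and 0.11 after quantile normalization, neither past the threshold. JUNB passed as lower with a pseudocount of 64 (-0.14) and with the 60th percentile filter (-0.22). With a pseudocount of 1, 12984 probe sets were lower relative to the median gene. Leaving out each array in turn gave 941 to 1479 probe sets lower as deposited, the lowest without shLUC replicate 1. The replicate block gave 3460 genes higher and 3229 lower relative to the median gene and changed no call of a member. Centring on the hybridisation controls, chosen after seeing the data, gave 2528 genes higher and 3375 lower and the same number of member calls. The causes of these changes were not tested. Intensities near background limit EGR3, FOSL1 and the shLUC level of EGR1.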

Other observations

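The control probe sets moved in groups. The 18 for hybridisation controls had median intensities of 1061 and 1089 on the shBORIS arrays, against 794 and 698 on the shLUC arrays, and differed by 0.21 to 0.62 on the log2 scale. The 24 for the poly-A controls dap, lys, phe and thr differed by a median of 0.20, with 21 of them higher. The 20 for tag and trp sequences differed by a median of -0.01, and the 33 ERCC probe sets with a mean above the filter also by -0.01. When arrays were centred on the hybridisation controls, an alternative chosen after seeing the data, the differences were 1.61 for EGR1, 0.31 for FOS, -0.12 for FOSB, -0.61 for FOSL2, -1.22 for JUN, -0.20 for JUNB and -0.41 for JUND. These lie close to the values relative to the median gene.

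EGR4, the remaining EGR gene, averaged 25.6 with shBORIS and 23.6 with shLUC and was not tested. MYC, an immediate early gene in many cells, averaged 14.7 with shBORIS and 17.6 with shLUC in this line with amplified MYCN, also under the filter.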
